A study of Mus musculus with 2 samples.

Results

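Genes whose official symbol is Cd followed by a number encode, for the most part, proteins on the surface of white blood cells. The number is that of the cluster of differentiation, a system that names surface molecules by the antibodies that bind them. The genes were taken as the protein-coding genes on mouse chromosomes 1 to 19 with such a symbol and at most 1 further letter, leaving out Cd84, Cd48 and Cd74. This gave 74 members of 20780 coding genes on these chromosomes in the GENCODE M21 annotation of mm10. The mark read here was trimethylation of histone H3 at lysine 36 (H3K36me3), mapped by chromatin immunoprecipitation and sequencing in macrophages grown from bone marrow of C57BL/6J mice without any stimulus. There was 1 group of 2 biological replicates, which the labels record under a single donor entry. Age and sex are given as not collected. With 1 group, no test across samples was possible. Genes are not replicates, so members are described by counts and values beside those of all coding genes, and the spread between the replicates may be technical.

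H3K36me3 is laid down behind elongating RNA polymerase II, mainly by the methyltransferase Setd2, so it builds up in the bodies of transcribed genes and toward their 3′ ends, and is low at their starts. The name Cd joins proteins of unlike structure and lineage: antigen receptor subunits of T and B cells, immunoglobulin-like receptors and lectins of myeloid cells, ligands that costimulate or restrain T cells, four-pass membrane proteins called tetraspanins, and regulators of complement. Macrophages are myeloid cells, and many of these proteins serve to tell them from lymphocytes.

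The measure was the percent of a gene body, from annotated start to annotated end, that lay under peaks of each replicate, called the covered share below. A gene is called marked when its covered share reached 20% in both replicates. The peak lists hold no read counts, so depth is unknown, and a gene without a peak was undetected rather than shown to lack the mark. Replicate 1 held 32098 peaks over 28.5 Mb and replicate 2 held 58505 over 79.4 Mb, so a comparison of covered shares between the replicates carries that gap.

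The labelled cell type was set beside chosen macrophage genes outside the Cd set and chosen lymphoid genes within it. Of 7 macrophage genes (Adgre1, Itgam, Csf1r, Mertk, Fcgr1, Spi1 and Lyz2), all 7 had a covered share of 25.5% to 67.2% in replicate 2, and 4 reached 20% in replicate 1. Lyz2 had no peak in replicate 1. The T cell receptor and coreceptor genes Cd3d, Cd3e, Cd3g, Cd247, Cd4 and Cd8a and the B cell genes Cd22, Cd79a and Cd79b, which are members, had no peak in either replicate. The contrast depends on the genes chosen. Among the members, 4 lymphoid ones (Cd72, Cd28, Cd244a and Cd69) had a peak, and 6 of 12 myeloid ones had none.

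The members under the mark can be shown by a stretch of their sequence. For the 3 marked members and for Cd28, the lymphoid member with the most bases under replicate 1 peaks, a window of 200 bases was taken around the longest coding exon that lay wholly under peaks of both replicates. Capitals show the coding exon and lower case the introns on either side, on the gene's strand, from the mm10 sequence.
Cd300a, chr11:114899708-114899907, plus strand: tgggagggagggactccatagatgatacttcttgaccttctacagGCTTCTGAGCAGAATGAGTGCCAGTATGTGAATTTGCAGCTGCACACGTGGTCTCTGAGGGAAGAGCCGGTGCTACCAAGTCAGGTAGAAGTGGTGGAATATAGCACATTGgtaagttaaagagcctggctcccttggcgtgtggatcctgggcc
Cd274, chr19:29382431-29382630, plus strand: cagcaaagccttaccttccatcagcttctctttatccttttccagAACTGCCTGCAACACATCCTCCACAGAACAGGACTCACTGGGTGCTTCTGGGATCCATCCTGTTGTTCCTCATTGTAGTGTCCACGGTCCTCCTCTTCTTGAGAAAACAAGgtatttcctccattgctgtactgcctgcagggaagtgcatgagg
Cd83, chr13:43799555-43799754, plus strand: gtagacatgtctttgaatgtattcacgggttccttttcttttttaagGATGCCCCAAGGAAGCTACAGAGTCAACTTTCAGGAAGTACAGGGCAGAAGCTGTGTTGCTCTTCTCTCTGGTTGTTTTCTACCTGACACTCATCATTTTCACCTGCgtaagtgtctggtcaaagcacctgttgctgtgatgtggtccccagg
Cd28, chr1:60765235-60765434, plus strand: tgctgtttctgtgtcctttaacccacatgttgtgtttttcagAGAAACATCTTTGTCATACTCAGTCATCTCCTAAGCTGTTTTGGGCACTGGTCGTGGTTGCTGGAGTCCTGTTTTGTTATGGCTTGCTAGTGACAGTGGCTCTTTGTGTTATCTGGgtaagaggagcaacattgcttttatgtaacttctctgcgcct
The 4 exons are 111, 111, 107 and 116 bases long in that order, and each is bounded by ag before and gt after it, the usual ends of an intron. GC content of the windows was 52.0% for Cd300a, 49.5% for Cd274, 46.0% for Cd83 and 44.0% for Cd28.

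Few of the members carried broad H3K36me3 in these resting macrophages. Of the 74 members, 3 were marked (Cd300a, Cd274 and Cd83), or 4.05%, where the same rule called 8.03% of all coding genes on these chromosomes. Counting only peaks with an enrichment of at least 3 ended the call of Cd83 (2 members, against 5.12% of coding genes), and counting only those with a −log10 q of at least 5 ended all 3 calls (0 members, against 1.52%). In replicate 1 alone the same 3 reached 20%, against 8.06% of coding genes. In replicate 2 alone 14 members did, or 18.9%, against 24.6%. A peak of any size was found in both replicates in 14 members (18.9%, against 30.2% of coding genes) and in replicate 2 in 26 (35.1%, against 39.9%). The other 48 members had no peak in either replicate, which is 64.9% of them, against 59.8% of coding genes. No member (0) had a peak in replicate 1 only, where 0.327% of coding genes did, and 12 (of 74) had one in replicate 2 only, where 9.75% of coding genes did. Of the 26 with a peak, 25 were covered more in replicate 2, as were 98.1% of coding genes with a peak. The exception was Cd63, at 0.431% and 0.355%.

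**Figure D1:**
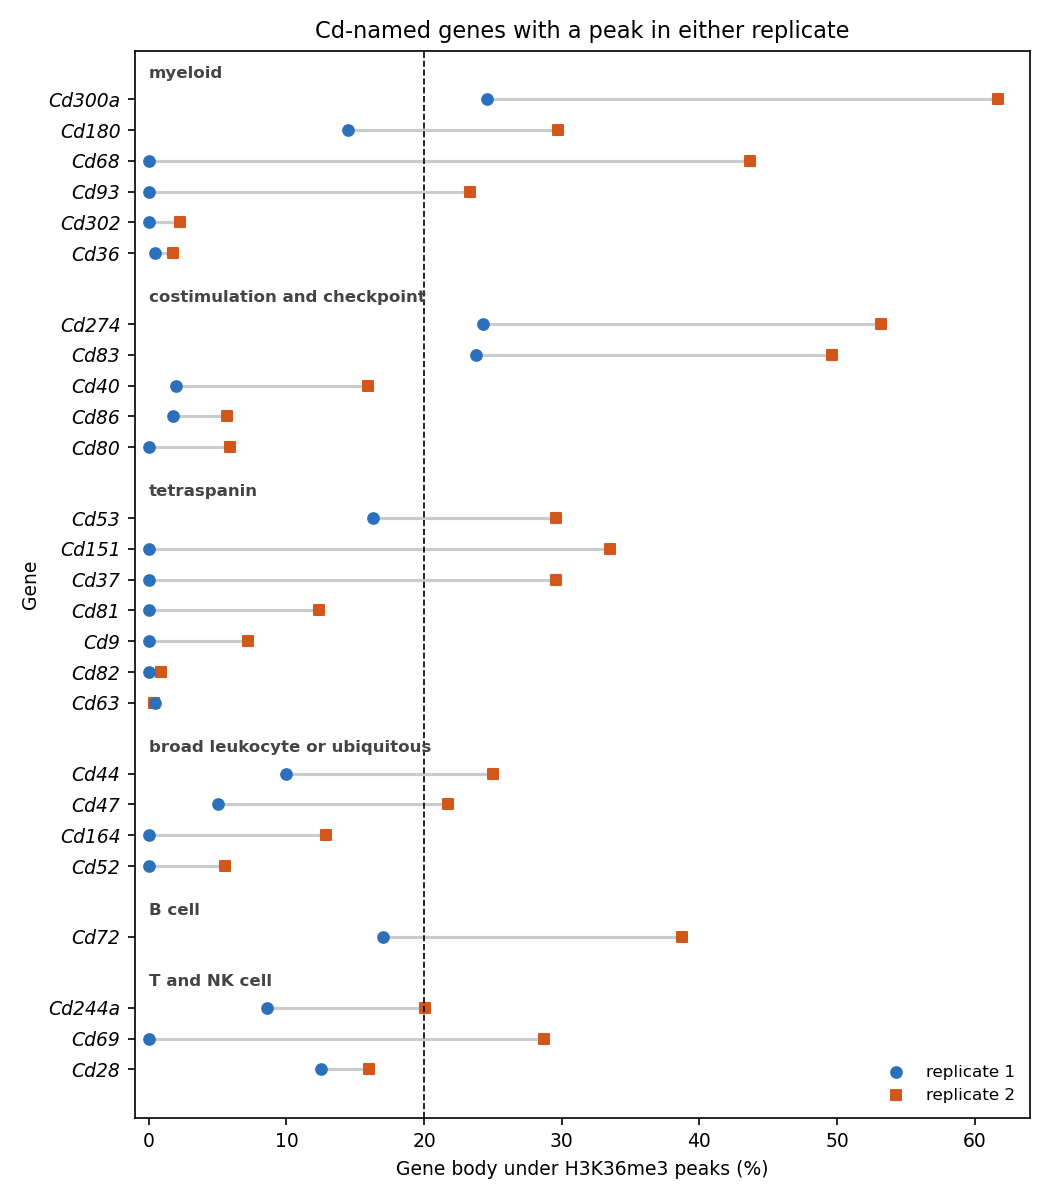
Covered share (percent of the gene body under H3K36me3 peaks, horizontal axis) of the 26 members with a peak, grouped by class, with circles for replicate 1 and squares for replicate 2 joined by a line and a dashed line at 20%. Cd300a, Cd274 and Cd83 have both symbols right of the dashed line, and 11 further members have only the replicate 2 symbol there.

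Among 12 members known best from myeloid cells, Cd300a was the most widely covered, and 6 of them had no peak at all, against 59.8% of coding genes. Cd300a encodes an inhibitory receptor that binds lipids of dying cells. Peaks covered 24.6% of its body in replicate 1 and 61.7% in replicate 2, the widest gap between replicates of the members except Cd68. It spans 14.6 kb on chromosome 11, from 114890041 to 114904654, and held 3 peaks in replicate 1 and 5 in replicate 2. The strongest in replicate 2, at an enrichment of 5.04 over background as the authors give it, ran for 3062 bases and holds the exon shown above. Its last replicate 2 peak ran 1286 bases past the annotated end.

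Cd180 encodes a Toll-like receptor homologue of B cells and myeloid cells that, in the latter, holds back responses to bacterial lipid. Of its body 14.5% lay under peaks in replicate 1 and 29.7% in replicate 2. The annotated body of 46.1 kb includes a long transcript, while its principal transcript spans 13.4 kb, and over that span the shares were 32.7% and 35.2%. The replicates thus lay close together once the body was so defined. Bases of Mast4, a kinase gene on the opposite strand, overlap 7.14 kb of the Cd180 body. Without them the shares were 17.2% and 29.3%.

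The remaining covered myeloid members had peaks in replicate 2 mainly. Cd68, whose product is a lysosomal membrane protein used to stain macrophages, is only 1.94 kb long and had 0% in replicate 1 and 43.7% in replicate 2. That share came from 1 peak of 867 bases with an enrichment of 3.13, higher than only 9.07% of the peaks in that list, and it ran from 56.3% of the body to just past its end. Cd93, which encodes a receptor of myeloid and endothelial cells, had 0% and 23.3%, from a pair of peaks wholly in its exons. Their enrichments, 2.60 and 3.30, were higher than only 1.24% and 15.4% of the peaks in that list. In the authors' pooled and replicated lists, made from both replicates, Cd93 had 20.1% and 9.97%, and Cd68 14.7% and 0%. Cd302, a lectin-like receptor gene, had 0% and 2.28%. Cd36, which encodes a scavenger receptor that takes up fatty acids and oxidised lipoprotein, had 0.451% and 1.76% over 107 kb. Its peaks covered 0.483 kb in replicate 1 and 1.89 kb in replicate 2.

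No peak was found in Cd14 (the coreceptor for lipopolysaccharide), Cd163 (the haemoglobin scavenger receptor), Cd33 (a sialic acid receptor), Cd101, Cd177 (a neutrophil surface protein) or Cd300e. Cd14 is the shortest member of the myeloid class at 1.73 kb, and Cd36 the longest. The nearest peak to Cd14 lay 14.9 kb away in replicate 1 and 11.0 kb in replicate 2, in Tmco6. For Cd163 it lay 66.8 kb and 66.1 kb away, in Pex5.

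Members that act in costimulation or restraint of T cells held the other 2 marked genes. Cd274 encodes PD-L1, the ligand of the inhibitory receptor PD-1. Peaks covered 24.3% of it in the first replicate and 53.2% in the second, over 20.6 kb on chromosome 19 from 29367455 to 29388095. It held the strongest peak of any member in replicate 2, at an enrichment of 6.43, higher than 99.0% of the peaks in that list, in an intron. It also held the longest, of 4816 bases, which contains the window shown. Cd83 encodes a membrane protein of mature dendritic cells and activated leukocytes. At 18.4 kb on chromosome 13, from 43784775 to 43803132, it had 23.8% and 49.6%, and the strongest and longest peak of any member in replicate 1 (enrichment 4.47, 3323 bases). In replicate 2 its strongest peak, at 6.25, had only 76 bases inside the gene and 1579 beyond its annotated end.

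Receptors and ligands of the CD40 and B7 pathways were covered more narrowly. Cd40, the receptor through which helper T cells activate antigen-presenting cells, had 1.95% in replicate 1 and 15.9% in replicate 2. The genes of the B7 ligands that engage CD28 had little: Cd86 1.75% and 5.66% over 62.2 kb, and Cd80 0% and 5.90% over 40.8 kb. Cd200 and Cd276, which encode ligands that damp myeloid and T cells, had no peak. Of the 7 genes in this class, 5 had a peak in replicate 2, against 39.9% of coding genes, and 4 in replicate 1, against 30.5%.

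All 7 tetraspanin members had a peak in replicate 2, the list with more peaks, against 39.9% of coding genes. In replicate 1 only 2 of the 7 did (28.6%), against 30.5%, and 0 were marked, against 8.03%. Cd53, a leukocyte tetraspanin, was covered at 16.3% and 29.6% over 30.2 kb, with 5 and 9 peaks. Cd151 had 0% and 33.5%, and Cd37 0% and 29.6%. Cd81 had 0% and 12.4%, Cd9 0% and 7.22%, and Cd82 0% and 0.893%. The product of Cd63 marks late endosomes and lysosomes. Its single peak in each replicate overlapped the last 51 bases of the gene in replicate 1 and the last 42 in replicate 2, and ran 381 and 378 bases past the end. A replicate 2 peak of Cd9 and the only peak of Cd151 also crossed the end of the gene, by 951 and 362 bases.

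Among 7 members expressed widely in leukocytes or beyond, the long genes Cd44 and Cd47 were covered in both replicates. Cd44, the hyaluronan receptor, had 9.95% and 25.0% over 90.5 kb, from 11 and 20 peaks. Cd47 encodes the signal by which cells hold off phagocytosis. It had 5.02% and 21.7% over an annotated 114 kb, and 10.4% and 43.1% over its principal transcript of 55.4 kb. By bases, Cd47 was the most covered member in replicate 2, at 24.9 kb, and Cd44 in replicate 1, at 9.01 kb. Cd164, a sialomucin gene, had 0% and 12.9%. Cd52, a short glycoprotein gene, had 0% and 5.50% of an annotated 12.6 kb and 27.0% in replicate 2 over its principal transcript of 1.55 kb. Cd24a, Cd38 and Cd320 had no peak.

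Of 23 lymphoid members, 18 of T and natural killer (NK) cells and 5 of B cells, 0 were marked, against 8.03% of coding genes, and 19 (82.6%) had no peak in either replicate, against 59.8%. The 15 bare T and NK cell members were Cd2, Cd3d, Cd3e, Cd3g, Cd4, Cd5, Cd6, Cd7, Cd8a, Cd27, Cd70, Cd96, Cd160, Cd226 and Cd247. The bare B cell members included Cd22, Cd79a and Cd79b. Bare genes ranged from Cd7, the shortest lymphoid member at 2.67 kb, to Cd226, the longest at 95.3 kb. The 4 with a peak were Cd72, Cd28, Cd244a and Cd69, and each had a different layout.

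Cd28 encodes the costimulatory receptor of T cells. Its covered shares were 12.5% and 16.0%, the smallest gap between replicates among the members above 10% in both. No other coding gene overlaps it. All its peaks began at or beyond 59.3% of the body, with 6 in replicate 1 and 5 in replicate 2, and the last of them in each replicate was wholly exonic. The annotated body of 56.6 kb runs from 60716800 to 60773359 on chromosome 1, and the principal transcript is 27.0 kb. Over the latter the shares were 26.1% and 33.4%, past 20% in both replicates. The T cell receptor genes listed above had no peak in the same libraries.

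Cd244a encodes an NK cell receptor, and its covered share of 8.62% and 20.1% came mostly from bases it shares with Ly9. Ly9 lies on the opposite strand and overlaps 18.8 kb of the Cd244a body, with 23.2% and 50.1% of its own body under peaks. No Cd244a exon lay under any of these peaks. Without bases of Ly9 the shares of Cd244a were 0% and 2.38%, and over its principal transcript 0% in both.

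Cd72, which encodes an inhibitory coreceptor of B cells, had 17.0% and 38.7% over 8.17 kb. Its 1 peak in replicate 1 also touched Tesk1, which overlaps the last 1.60 kb of the gene on the other strand. Without those bases the shares were 12.1% and 37.8%. In replicate 2, 2 of its 3 peaks touched no other coding gene. Cd69, an early activation gene of lymphocytes, had 0% and 28.7%, from 2 peaks of which the weaker, at an enrichment of 2.15, was higher than only 0.0786% of the list.

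**Figure D2:**
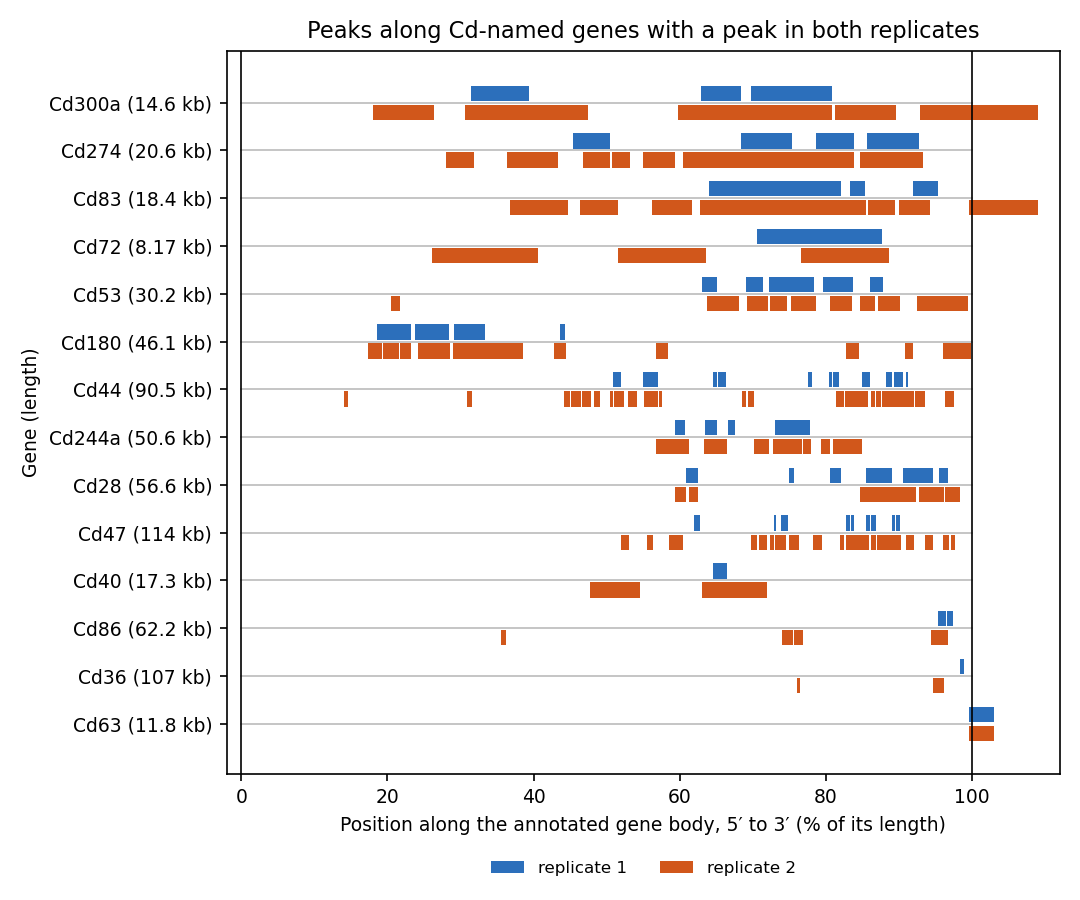
Peaks along the 14 members with a peak in both replicates, each drawn from annotated start (0%) to annotated end (100%) on its own strand, with replicate 1 above and replicate 2 below the line. Peaks of Cd28, Cd244a and Cd47 all lie past the middle of the annotated body, those of Cd180 lie between 17.3% and 44.4% of its body apart from 4 further ones in replicate 2, and the Cd63 peaks lie across its end.

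Set side by side, a larger share of myeloid than of lymphoid members had a peak, and only in replicate 2 was the myeloid share above that of coding genes. The classes follow general knowledge, and several of these genes, Cd180 among them, are expressed in more than 1 lineage. Cd180 had a peak in both replicates, so counting it as a B cell gene would narrow the difference between the classes in each. Cd5l, a macrophage protein gene, and Cd300c, a neighbour of Cd300a, were placed in neither class. Both were bare, so counting them as myeloid would lower the myeloid shares. In replicate 1, 3 of 12 myeloid members (25.0%) and 3 of 23 lymphoid members (13.0%) had a peak, against 30.5% of coding genes. In replicate 2 these were 6 of 12 and 4 of 23 (17.4%), against 39.9% of coding genes. At 20% or more there were 1 (8.33%) and 0 in replicate 1, against 8.06%, and 4 (33.3%) and 3 (13.0%) in replicate 2, against 24.6%. The counts are small, and 1 member more or less moves the myeloid share by 8.33 percentage points. The median covered share was 0% in both classes in replicate 1 and 0.880% against 0% in replicate 2, with a median of 0% over all coding genes. Leaving out members of uncertain class left 8 myeloid members, whose median over the mean of the replicates was 0%. Mean shares were 3.30% and 13.5% for myeloid members, 1.66% and 4.50% for lymphoid members, and 4.37% and 12.2% for coding genes. Leaving out Cd244a, whose covered bases are mostly shared with Ly9, leaves 3 lymphoid members with a peak.

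The classes also differed in gene length, and the share of coding genes with a peak differed between ranges of length. Whether length bears on the difference between the classes was not tested. Lymphoid members had a median length of 10.9 kb, myeloid members 18.3 kb and all coding genes 17.6 kb. Between 5 and 50 kb, where the median was 20.2 kb for 9 myeloid and 10.9 kb for 13 lymphoid members, 4 and 2 had a peak in replicate 2, against 45.5% of coding genes of that length, and 3 and 2 reached 20%, against 31.7%. Of genes under 5 kb, 1 of 2 myeloid (Cd68) and 0 of 5 lymphoid members had a peak there, against 14.0% of coding genes of that length. At 50 kb or more it was 1 of 1 myeloid (Cd36) and 2 of 5 lymphoid members (Cd28 and Cd244a), against 46.1%. The median length of lymphoid members was 29.4 kb for the 4 with a peak and 10.9 kb for the 19 without. The 4 lymphoid members with a peak were Cd69 (8.11 kb), Cd72 (8.17 kb), Cd244a (50.6 kb) and Cd28 (56.6 kb). Leaving out Cd244a, whose covered bases are mostly shared with Ly9, puts the median at the 8.17 kb of Cd72. That is below the 10.9 kb of lymphoid members without a peak. The median length of myeloid members was 23.6 kb for the 6 with a peak and 18.2 kb for the 6 without.

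Over all members, the counts in each range of length were too small to describe a length pattern of their own. A covered share of 20% or more in replicate 2 was reached by 10.3% of coding genes under 5 kb, 29.4% from 5 to 20 kb, 35.1% from 20 to 50 kb and 17.5% at 50 kb or more. Among members that share was reached by 2 of 11, 6 of 31, 3 of 21 and 3 of 11 in the same order. Marked members were 2 of the 31 from 5 to 20 kb and 1 of the 21 from 20 to 50 kb, against 10.8% and 12.5% of coding genes. None (0) of the 11 under 5 kb or the 11 of 50 kb or more was marked, against 1.99% and 3.99%. A peak in replicate 2 was found in 2, 11, 7 and 6 members in order of length, against 14.0%, 39.4%, 54.6% and 46.1% of coding genes. The 14 members with a peak in both replicates had a median length of 38.1 kb, and the 12 with a peak in replicate 2 only 12.1 kb. Across the 26 members with a peak, length and covered share had a Spearman rho of 0.36 in replicate 1, where 12 are tied at 0%, and -0.36 in replicate 2. Length and covered bases had 0.59 and 0.56. These are descriptions across genes of the same libraries, with no test.

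**Figure D3:**
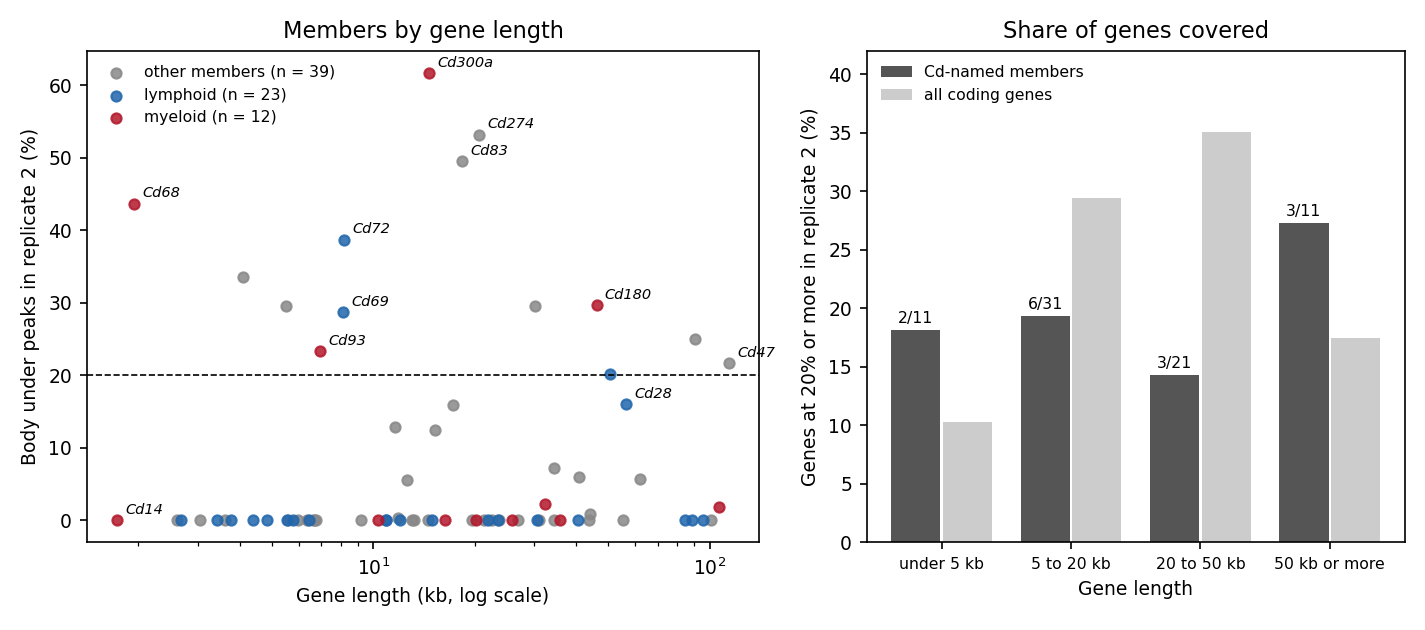
Left, covered share in replicate 2 against gene length (log scale) for the 74 members, coloured by lineage, with a dashed line at 20%. Right, percent of genes at 20% or more in replicate 2 by length, for members (dark, with counts) and all coding genes (light). The member bars rest on 2 of 11, 6 of 31, 3 of 21 and 3 of 11 genes in order of length, so 1 gene moves the outer bars visibly.

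The way the body is drawn changed the call of a few members. Over principal transcripts, a definition chosen after seeing the data, Cd180 and Cd28 joined Cd300a, Cd274 and Cd83, so that 5 members were marked, against 8.44% of coding genes by the same rule. The annotated body of 7 members is so extended that the principal transcript covers less than 60% of it. Overlap with another coding gene touched 8 members: Cd27, which lies wholly inside Vamp1, Cd37, Cd52, Cd72, Cd160, Cd180, Cd244a and Cd247. Shared bases held all peaks of Cd244a in replicate 1 and most of its covered bases in replicate 2, and part of a Cd72 peak in each replicate. They also held the Cd180 peaks of 505 and 1794 bases in replicate 2, which lie within Mast4.

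**Figure D4:**
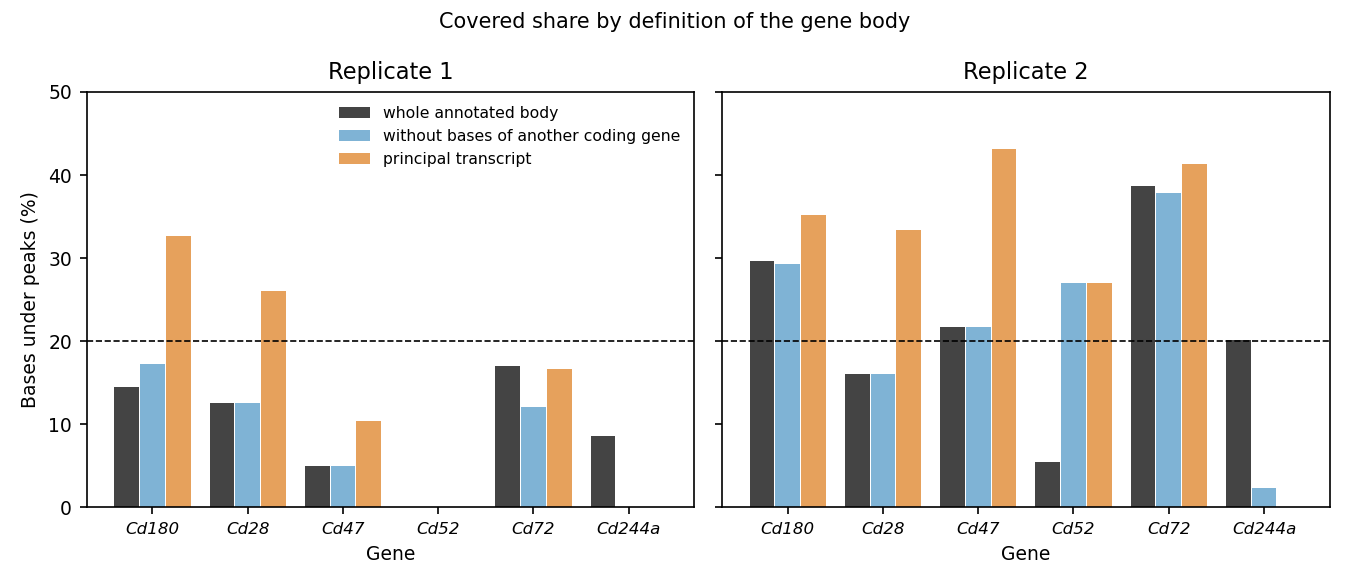
Percent of bases under peaks in each replicate for 6 members under 3 definitions of the gene body, with a dashed line at 20%. Cd180 and Cd28 pass 20% in both replicates over the principal transcript, and Cd244a drops to 0% and 2.38% without bases of another coding gene.

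Within covered members the peaks lay toward the 3′ end, as over coding genes in general. Over the 14 members with a peak in both replicates, the mean covered share of the first 20% of the body was 0.547% in replicate 1 and 1.85% in replicate 2, and that of the last 20% it was 19.2% and 42.4%. Coding genes with a peak in both replicates had 2.39% and 8.04% in the first 20% and 22.4% and 51.9% in the last. In replicate 1 the rise over members was uneven, with 0.547%, 7.23%, 3.36%, 27.3% and 19.2% in successive 20% stretches. Coding genes had 2.39%, 9.57%, 16.3%, 21.6% and 22.4%. In replicate 2 each stretch had more than the one before, in members and in coding genes. Of 55 member peaks in replicate 1, 49 were centred in the 3′ side of the body, and of 122 in replicate 2, 97 were. Cd44 held 11 and 20 of these peaks and Cd47 held 9 and 21. The 4 and 7 peaks of Cd244a, which all touch Ly9, are included. Peaks of all coding genes were not counted in this way. None of the 74 annotated starts (0) had a peak base within 250 bp in either replicate, where 0.269% and 0.626% of coding genes did.

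Most covered bases in these 14 members were intronic, with 20.4% in exons in replicate 1 and 16.5% in replicate 2, where exons make up 9.09% of the bodies. Coding genes with a peak in both replicates had 26.6% and 23.1% in exons, where exons make up 12.1% of the bodies. In the 14 members, exon bases were covered at 18.7% and 36.3% and intron bases at 7.30% and 18.4%. In those coding genes, exon bases were covered at 20.3% and 46.3% and intron bases at 7.71% and 21.2%. Exons and introns were not matched for position along the gene. Of single member peaks, 23 of 55 and 57 of 122 held no exon base, all those of Cd244a among them. Peaks of all coding genes were not counted for this either. Member peaks had a median enrichment of 3.12 and 3.82, beside 3.22 and 3.83 for all peaks of each list.

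Several classes held bare members only, where 59.8% of all coding genes had no peak in either replicate. All 5 members classed by protein family as complement regulators (Cd46, Cd55, Cd55b, Cd59a and Cd59b) had no peak. So did Cd207 and the 7 Cd209 genes, lectins related to human DC-SIGN that dendritic cells and tissue macrophages carry, and Cd34, Cd109 and Cd248, known from stem, endothelial or stromal cells. Cd5l, a secreted macrophage protein gene that the naming rule also takes, and Cd300c were bare too. The Cd209 genes stand in a cluster on chromosome 8 far from any peak: the nearest lay 102 to 289 kb from each gene in replicate 1 and 62.6 to 259 kb in replicate 2. Over all 48 bare members the nearest peak lay at a median distance of 49.5 kb (replicate 1) and 44.0 kb (replicate 2). It was greatest at Cd96, at 302 and 300 kb.

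Some bare members lay close to a peak, in a neighbouring gene or in no coding gene. In replicate 2, 6 of the 48 had a peak within 5 kb, and in replicate 1 it was 1 of them, Cd5. Neither these counts nor the distances above were computed for coding genes without a peak. Whether bare members lie nearer to peaks than such genes, or farther, is therefore unknown. The nearest peak to Cd5 lay 3.49 and 2.83 kb past its end, in Vps37c. Cd4 had one 2.77 kb past its end in replicate 2, in Gpr162, and Cd27 one at 2.83 kb, in Tapbpl and Vamp1. Cd160 and Cd46 had a replicate 2 peak 0.304 and 0.744 kb past their ends, and Cd320 one 3.62 kb before its start, each in no coding gene.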

How the data were processed

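H3K36me3 ChIP-seq peaks were read from 2 libraries of unstimulated macrophages, each made from 10 ng of DNA with fragments of 350 to 480 bp. Per the file headers, the authors called peaks on each replicate's own alignments to mm10, and also on both together (a pooled and a replicated list). Which aligner and caller they used is not given in the sources used here. Every peak comes with a deposited enrichment, a ratio over the background the authors used, and a deposited −log10 q. Depth is unknown and no interval for reads can be given.

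Gene bodies came from GENCODE M21, with the longest record per symbol. Covered share is the percent of the body under peaks. The members, the 9 classes and the limits were chosen with earlier results of these data known. Classes follow the best known expressing cell or protein family. Named were the marked members, up to 3 highest and 2 lowest of each class, those with the 5 widest replicate gaps, the longest and shortest myeloid and lymphoid members, and neighbours sharing peak bases. Other members were named, after their values were seen, to account for each. Values of some members are not reported here. Alternatives were limits of 10% and 50%, an enrichment of at least 3, a −log10 q of at least 5, the combined lists, each replicate alone, members of at least 5 kb, other gene bodies, any peak, and narrower classes. Python 3.11.15, numpy 2.4.6, pandas 2.3.3 and scipy 1.17.1 were used. Coverage was tested on simulated data. Sequences are from the GRCm38.p6 assembly, the same chromosomes as mm10.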

Additional observations from a re-analysis of the deposited data

Results flagged for a closer look

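Cd160, an NK and T cell receptor gene, had no peak in either replicate, but 1.23% of its body lay under peaks of the authors' replicated list. It was picked out because it is the only member with a peak in a combined list and in neither replicate. The authors' pooled list had none in it, and the nearest replicate 2 peak ended 0.304 kb past the gene.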

How the results depend on the processing

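The number of marked members, 3 of 74 with 20% in both replicates, moved with the limit and the list. It was 7 at 10%, 0 at 50%, 0 with a −log10 q of at least 5, 14 with any peak base, 14 in the authors' pooled list, 10 in their replicated list and 5 over principal transcripts, an alternative chosen after seeing the data. With 1 replicate left out it ranged from 3 to 14, the higher value without replicate 1. For myeloid members, from 1, the same settings gave 2, 0, 0, 3, 3, 2 and 2, and 1 to 4 with 1 replicate left out. For lymphoid members, from 0, they gave 2 at 10%, 3 with any peak base, 4 in the pooled list, 2 in the replicated list and 1 over principal transcripts (Cd28), and 0 to 3 with 1 replicate left out. At 50% and at the stricter q the lymphoid count was 0 too. The median covered share of myeloid members, 0.553% over the mean of the replicates, was 1.46% in the pooled list and 0% to 0.880% with 1 replicate left out. That of lymphoid members was 0% under every alternative run. An enrichment of at least 3 removed Cd83 and left 2 marked members. Leaving out members under 5 kb, bases of another coding gene or members of uncertain class kept Cd300a, Cd274 and Cd83 as the marked members where they belong to the class. Of all coding genes, 8.03% were marked by the main rule, 1.52% at the stricter q and 8.44% over principal transcripts. Any peak base in both replicates was found in 30.2% of them. In replicate 1 alone 8.06% reached 20%, and in replicate 2 alone 24.6%. Shares of coding genes at 10%, at 50% and in the combined lists were not computed, so those counts have no background. The cause of the moves between lists was not tested. Depth, which the files do not give, limits what a missing peak can show.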

Other observations

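Cd300a and the bare members Cd300c and Cd300e stand in a cluster of related receptor genes on chromosome 11, whose other genes were added after their values were seen. Cd300c2 (27.2% in replicate 1 and 42.2% in replicate 2), Cd300lf (28.4% and 66.9%) and Cd300lb (47.2% in replicate 2) reached 20% in both replicates, as Cd300a did (24.6% and 61.7%). Cd300ld had 5.57% and 24.3%. Cd300a and Cd300lb stand side by side. Cd300c had no peak in either replicate, nor did Cd300ld2, Cd300ld4, Cd300ld5, Cd300ld3 and Cd300e, which follow one another along the chromosome before Cd300lf. Cd300lg, which lies apart on the same chromosome, had none. The 4 Cd300ld copies without a peak are near 6 kb each (5.86 to 6.29 kb). How far their reads map uniquely was not tested.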
